A study of Malus domestica with 12 samples.

Results

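Apple buds held a set of 24-nucleotide (nt) small RNAs that mapped to predicted hairpins in the genome. None had a name in the miRNA databases miRBase and PNRD. They were chosen as the distinct mature sequences of exactly 24 nt that the hairpin search of the study listed under a read identifier (a tag number, then x and a number) instead of a miRNA name. Of 370 distinct small RNA sequences analysed here, 96 met this rule, from 102 hairpin loci, since 6 of them had 2 loci each. The other sequences were 254 with a miRNA name and 20 unnamed ones of 20 to 23 nt. None of the 96 was present in the table of known miRNAs, which follows from the rule, since a sequence named there was counted as named. In all 96 the number at the end of the identifier equalled the total of its reads over the 12 libraries.

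The libraries were made from apical floral dormant buds on spurs of Malus domestica cv. "Golden Delicious", taken from orchard trees in 1 winter. The 4 groups of 3 libraries followed the accumulation of chilling. Stage 1, Early Endodormancy, was sampled at 665 chilling hours (libraries A, B and C), and Stage 2, Late Endodormancy, at 1098 h (D, E and F). Stage 3, Early Ecodormancy, was sampled at 1280 h (G, H and I), and Stage 4, Late Ecodormancy, at 1395 h (J, K and L). Each library came from a mix of buds of several trees, and small RNAs were purified through their association with ARGONAUTE (AGO) proteins, so the data describe AGO-associated small RNAs. The buds hold many cell types, and fewer cells of a type cannot be told apart from less small RNA per cell.

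In plants, 24-nt small RNAs are mostly short interfering RNAs. In Arabidopsis they are cut by DICER-LIKE 3 from double-stranded RNA, loaded on AGO4 and its relatives and used in RNA-directed DNA methylation, which silences transposons and other repeats. The canonical miRNAs of 21 nt are cut by DICER-LIKE 1 from a stem-loop and are loaded mostly on AGO1. The first base of a small RNA takes part in this sorting in Arabidopsis, where AGO1 favours U and the AGO4 group favours A. Hairpins can also be cut by DICER-LIKE 3, and such "long miRNAs" of 24 nt have been described in rice. During endodormancy a bud does not grow even in warmth, and during ecodormancy only the cold outside holds it back.

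The 10 most abundant members are shown first, because they carried 61.3% of the 152462 reads of the set. The sequences are in the DNA letters of the deposited table, from 5′ to 3′, and the capital marks the first base.
t00205877_x43290: Acggtgataaatagggtagtgagc
t01163329_x11463: Gtttttgaatgaaaggctcatgtg
t00969484_x10829: Gtgtctgagaggtaaaaaggggtg
t05565673_x5938: Atccgtgccgttgaaatttgatcc
t03271250_x5800: Ttccttcgtgactaatccatcttc
t10212079_x3461: Gtttttgaatggaagactcatgtg
t05218660_x3185: Atccgtaccgttgaaatttgatcc
t07792803_x3305: Agtgtagaatgtgatttttggagt
t05833725_x3129: Agtaaaatggggtgtgtagatagc
t05783125_x3045: Aggagtgtgtgagaagtaaaatga
Of these 10, 6 began with A, 3 with G and 1 with U.

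The hairpins of the 3 most abundant members show how they were defined. Each precursor is given as deposited, with the mature small RNA in capitals, and the coordinates are those of the genome GDDH13 v1.1. All 3 mature sequences lay on the 3p arm of a hairpin on the plus strand.
t00205877_x43290 at chr7:29787418-29787568: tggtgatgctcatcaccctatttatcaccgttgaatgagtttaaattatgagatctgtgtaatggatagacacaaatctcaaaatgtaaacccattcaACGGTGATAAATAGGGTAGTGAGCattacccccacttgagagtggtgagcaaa
t01163329_x11463 at chr3:16706357-16706454: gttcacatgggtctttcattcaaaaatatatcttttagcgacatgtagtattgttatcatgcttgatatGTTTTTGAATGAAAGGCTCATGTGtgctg
t00969484_x10829 at chr6:4829437-4829567: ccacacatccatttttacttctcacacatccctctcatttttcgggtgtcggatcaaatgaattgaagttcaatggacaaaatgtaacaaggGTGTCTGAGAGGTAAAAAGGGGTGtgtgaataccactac
These precursors were 151, 98 and 131 nt long. Refolded with RNAfold, the mature sequence of t01163329_x11463 had no unpaired base in its hairpin, that of t00205877_x43290 had 1, and that of t00969484_x10829 had 2. In the study's own folding, t00205877_x43290 was judged to have an optimal stem-loop, and t00969484_x10829 was not. Whether these loci lie in genes or repeats was not analysed here.

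An A at the first position was the most widespread sequence feature of the set. It was present in 86 of the 96 sequences, or 89.6% (95% Wilson interval 81.9 to 94.2%, which treats the sequences as independent, although 44 of them are related). The other members began with G in 8 cases and with U in 2, and none began with C. Among the 20 unnamed sequences of 20 to 23 nt, 5 began with A, 9 with U and 6 with C. Among the 254 named sequences, 33 began with A and 157 with U, which is the usual first base of miRNAs. The only named sequences of 24 nt, osa-miR1862d and rgl-miR5141, also began with A, but they held 1 and 3 reads in all.

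**Figure D1:**
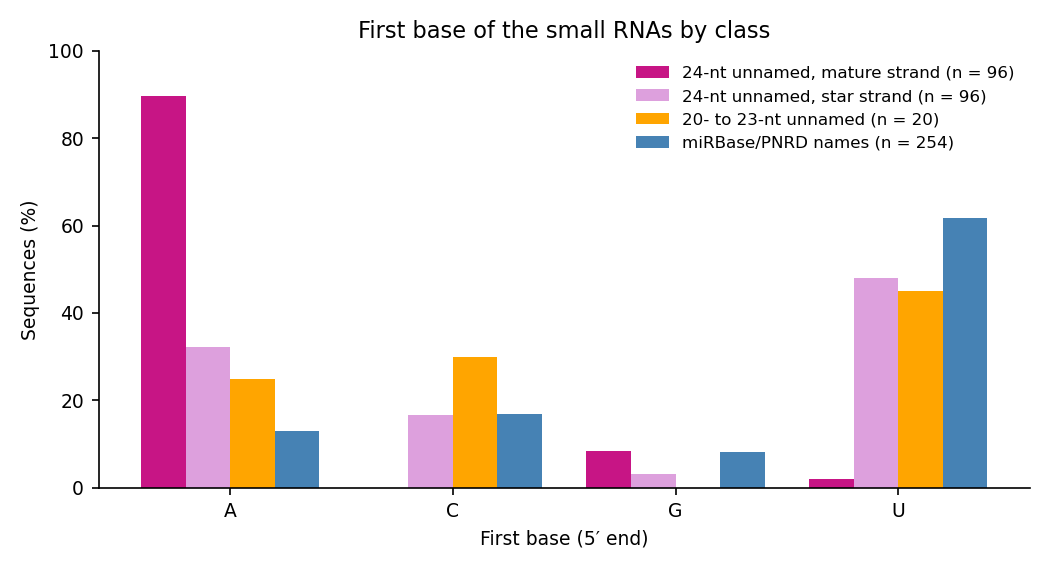
Percent of sequences with each first base in 4 sets of bars: the mature strands of the 96 unnamed 24-nt small RNAs, the star strands of these 96, the mature sequences of the 20 shorter unnamed ones and those of the 254 named ones. The bar of A reaches 89.6% for the mature strand of the 24-nt sequences, against 32.3% for the star strand of the same hairpins.

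The star strand, which is the part of the hairpin that pairs with the mature sequence, offered a comparison within the same loci. The table gives as star the strand that the program placed opposite the mature one. It began with A in 31 of 96 hairpins (32.3%), with U in 46, with C in 16 and with G in 3. In 58 hairpins the mature strand began with A and the star strand did not. The opposite, a star strand with A beside a mature strand without it, occurred in 3 hairpins, and both strands began with A in 28. In the shorter unnamed hairpins, A was the first base of 5 of 20 mature and of 5 of 20 star strands. The reads of the star strands were not used here, so the reads of both strands were not compared.

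Weighted by reads the A was less dominant, since several abundant members lacked it. Sequences with A held 76.3% of the reads of the set, against 18.8% for G and 4.88% for U. The G group was led by t01163329_x11463 and t00969484_x10829, and it also held t10212079_x3461 and 5 members with fewer reads. The U group consisted of t03271250_x5800 and t01106153_x1640. In single libraries the share of reads with A ran from 65.4% in library I to 86.2% in library L, so it was the majority in each.

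Beyond the first position no place was as uniform. At the last position, C was the most frequent base with 49 of 96 sequences, and at position 6 A was found in 47. The GC content of the set was low, with a median of 41.7% and a range from 20.8 to 58.3%. The medians were 46.5% for the shorter unnamed sequences and 52.4% for the named ones.

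Many of the sequences were near copies of another. With a shift of at most 8 bases allowed, 44 of the 96 shared at least 20 aligned bases with another member, and they fell into 10 families of 14, 9, 6, 3 and, in 6 cases, 2 members. The other 52 stood alone. Families held 43.4% of the reads of the set. Of the 4560 pairs of members, 116 shared at least 20 bases, and 7 pairs shared 23. Because counts were made on exact tags, as the identifiers show, near copies were counted apart, but a sequencing error in one could be read as another.

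Sequences of the largest family, family 1, are printed to show how its members depart from each other. Capitals mark a base unlike that of most members at the same aligned place.
t07792803_x3305: agtgtagaatgTgatttttggagt
t11423816_x2591: agtgtagaatgagatAtttggagt
t07356962_x2229: aTtgtagaatgagatttttggagt
t04296158_x1721: agtgtagaatAagaAttttggagt
t08618829_x1482: agtgtagaatgaTatttttggagt
t01670841_x1399: agCgtagaatgagatttttggagt
t05988915_x1147: Ggtgtagaatgagatttttggagt
t06573334_x1024: agaagtgtagaatgagatttttgA
t01876328_x736: agtgtagaatgaAatttttAgagt
t00123765_x612: Atagaatgagatttttggagtgcc
t11405782_x495: GgtgtagaatgagatttttgAagt
t02106445_x448: aagtgtagaatgaAatttttggag
t01416056_x386: agtgtagaatgagatGtttggagt
Of the 14, 11 began at the same place, and t06573334_x1024, t00123765_x612 and t02106445_x448 were shifted by 3, 3 and 1 bases. The sequence with the most frequent base at each place would read agtgtagaatgagatttttggagt, and it was not among the 370 sequences analysed here. Every member departed from it by 1 or 2 bases, and the departures were spread over its length. All 14 lay on the 3p arm, and they came from 15 loci on 9 chromosomes, 4 of the loci on chromosome 13. Their hairpins were 86 to 135 nt long. The star strands were related too, with 11 distinct sequences over the 15 loci that shared 17 to 24 bases in pairs.

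Family 2 held 9 sequences, also all from the 3p arm, at 10 loci on 7 chromosomes and with longer hairpins of 145 to 215 nt. Its members departed from the common sequence by 1 to 3 bases.
t05833725_x3129: agtaaaatggggtgtgtAgatagc
t06292294_x2452: agtaaaaAgATgtgtgtggatagc
t07733140_x2002: agtaaaatggAgtgtgtggataAc
t03612591_x1494: agtaaaatgggAtgtgtggataAc
t07990011_x1485: agtaaaatTgggtgtgtggatagc
t02485382_x1275: agtaaTTtggggtgtgtAgatagc
t05317198_x857: agtaaTTtggggtgtgtggataTc
t01640484_x552: agtaaaatggggtAtgtggataTc
t08559171_x429: agtaaaaAAAggtgtgtggatagc
Family 3 had 6 members, all on the 5p arm, at 6 loci on 6 chromosomes.
t05565673_x5938: atccgtGccgttgaaatttgatcc
t05218660_x3185: atccgtaccgttgaaatttgatcc
t06508800_x1328: atccAGaccgttgaaatttgatcc
t02547976_x244: atcTgAGccCttgaaatttgatcc
t11067480_x144: atccgtGccAttgaaatttgatcc
t11389257_x121: atccgGaccgttCaaatttAatcc
In this family t05218660_x3185 had the most frequent base at every place, and t05565673_x5938, the most abundant member, differed from it at 1 base. Family 5 consisted of t01163329_x11463 and t10212079_x3461, on chromosomes 3 and 11. Both began with G, and they differed from each other at 2 places.
t01163329_x11463: gtttttgaatgAaagGctcatgtg
t10212079_x3461: gtttttgaatgGaagActcatgtg
Families 1, 2, 3 and 5 held 12.97%, 8.97%, 7.19% and 9.79% of the reads of the set.

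Some members were close to the opposite strand of others. In 13 pairs, 1 sequence shared at least 20 bases with the reverse complement of the other. Of these pairs, 8 joined t01842693_x170, which belonged to no family, with members of family 1, and 4 joined both members of family 9 with t05218660_x3185 and t06508800_x1328 of family 3. The pair with the longest match, 22 bases, was t00403975_x734 with t01796028_x211.

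The loci were spread over the genome. The 102 hairpins lay on chromosomes 1 to 17 and on the unplaced sequence that the assembly calls Chr00, which held 1. Chromosome 10 had the most with 13, followed by chromosome 13 with 10. They were not clustered: the closest neighbours were the 2 loci of t06353578_x159 on chromosome 16, on opposite strands and 2255 bases apart, and the next closest pair was 15856 bases apart. The 6 members with 2 loci were t02485382_x1275, t05988915_x1147, t06370387_x812, t10560101_x554, t06353578_x159 and t10939657_x114.

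Most but not all members paired well within their hairpins when these were folded again. The mature sequence had a median of 2 unpaired bases in its own hairpin (range 0 to 6). At most 4 were unpaired in 88 of 96 sequences, or 91.7%, and none in 8. The 95% Wilson interval of this share, 84.4 to 95.7%, treats the sequences as independent, although many are related. At most 4 were also unpaired in 17 of 20 shorter unnamed and 36 of 38 named sequences. The study's search looked for loci that can form a hairpin, so good pairing follows in part from how the members were chosen. The most, 6 unpaired bases, was found for t06353578_x159 (at both loci), t07940529_x426, t06991240_x100, t11029067_x213 and t09667785_x135. Precursors had a median length of 136.5 nt (68 to 277), against 125.5 nt for the shorter unnamed and 112.5 nt for the named hairpins. A branched fold, in which a loop closed 2 or more inner helices, was found in 24 of the 96. Such folds were found in 5 of 20 shorter unnamed hairpins and in 3 of the 38 hairpins with a miRNA name. The mature sequence lay on the 3p arm in 60 and on the 5p arm in 36. In all 78 hairpins where the first mature base was paired, the star strand ended exactly 2 bases past its partner, but this place was set by the program and is no separate evidence of Dicer processing.

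Before the levels are compared, 2 libraries stand apart. Library D (Stage 2) had reads of 57 of the 96 sequences and library L (Stage 4) of 68, while the other 10 libraries had reads of 79 to 95. The deficit was not limited to the members. Of all 370 sequences, D had reads of 174 and L of 191, against 235 to 276 in the other libraries. D and L were not the shallowest, since they held 1727740 and 2307267 mature reads in a range from 561723 to 2307267. Their median distance from the other libraries of their stage over the members was 2.09 and 1.49 on the log2 scale, against 0.45 to 1.33 for the others. Over all sequences tested it was 1.37 and 1.36, against 0.49 to 1.12. A count of 0 allows up to 3 reads, which was 1.73 to 3.69 CPM (counts scaled for library size by TMM, the unit of all levels below). It covers counting error only, since PCR copies were not marked.

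**Figure D2:**
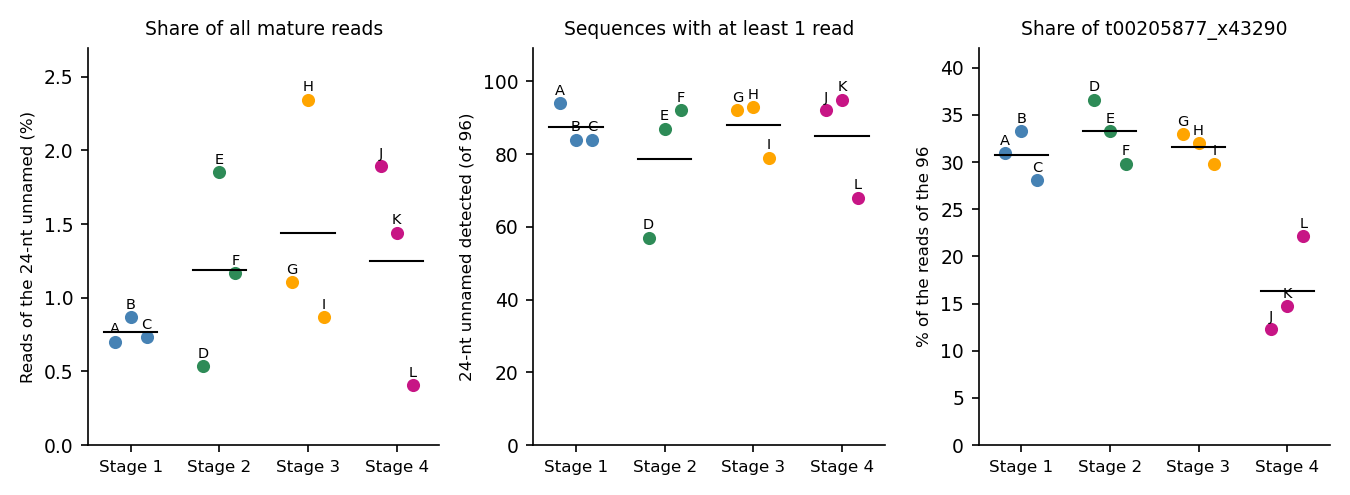
Measures of the 96 sequences for each library by stage: their share of all mature reads, how many had at least 1 read, and the part of their reads that was t00205877_x43290. Letters name the libraries and lines give stage means. D and L are low in detection, and the 3 Stage 4 libraries are the lowest in the share of t00205877_x43290.

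The set was a minor part of the mature reads, which are the reads of the 370 sequences analysed here and not of all AGO-bound small RNAs. Of the sequenced reads it held 0.0599% on average. It held 1.16% ± 0.604 of the mature reads (SD, n = 12), from 0.408% in library L to 2.34% in library H. By stage the share was 0.767% ± 0.0883, 1.19% ± 0.658, 1.44% ± 0.792 and 1.25% ± 0.762 (SD, n = 3 each), and the libraries of Stages 2 and 4 overlapped those of Stage 1, while the lowest of Stage 3 (0.8694%) was just above the highest of Stage 1 (0.8678%). Most mature reads belonged to miR166, and outside it the share of the set was 6.53% ± 2.75 (SD, n = 12). Without D and L it was 1.30% ± 0.565 of the mature reads (SD, n = 10).

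Levels of single members covered a wide range. The mean over the 12 libraries ran from 4.51 CPM for t04441452_x81 to 2994 CPM for t00205877_x43290, with a median of 35.6 CPM. The median was 33.7 CPM for the shorter unnamed sequences and 3.28 CPM for the named ones, whose totals start at 1 read, while those of the 96 start at 77. Only t00205877_x43290 exceeded 1000 CPM, 23 members exceeded 100 CPM and 13 stayed below 10 CPM. Reads in all 12 libraries were found for 38 members, and in all 10 libraries other than D and L for 63. In D 39 members were at 0 and in L 28. The 5 with the fewest reads were t05614578_x77, t04441452_x81, t04233781_x84, t05283376_x89 and t06991240_x100.

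**Figure D3:**
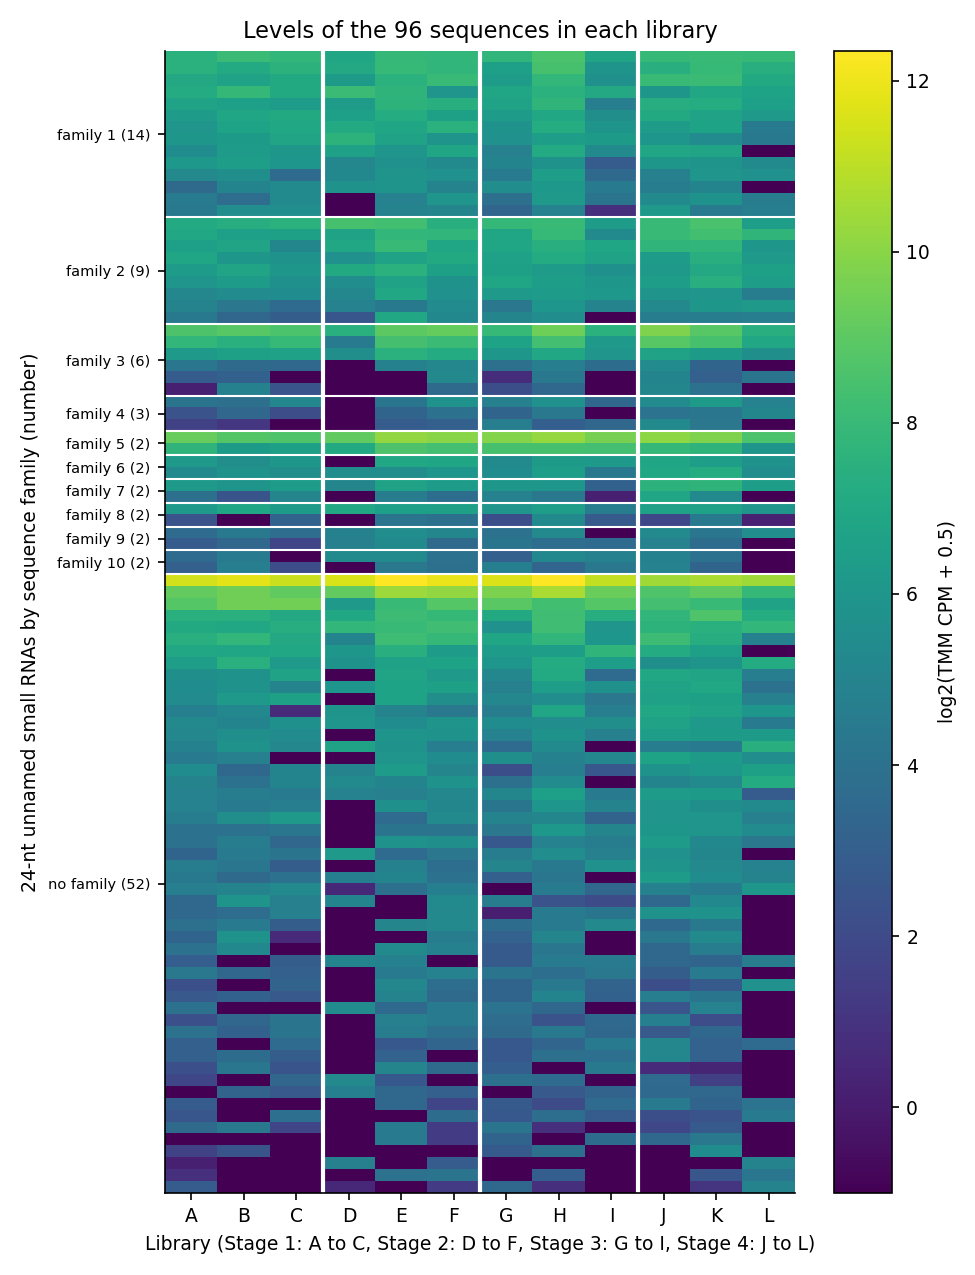
Level of each of the 96 sequences (one line each, in log2(CPM + 0.5)) in the 12 libraries, grouped by sequence family and, within a family, from high to low mean. The darkest cells are counts of 0, which are most frequent in libraries D (39 of 96) and L (28 of 96).

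Replicates of a stage differed strongly. The biological coefficient of variation estimated by edgeR had a median of 88.3% over the 93 members that passed the filter on low counts and of 73.4% over the other 145 small RNAs. The spread went with the level. Below 50 CPM the medians were 113% for 54 members and 106% for 69 others, between 50 and 200 CPM 57.5% and 57.8% (29 each), and from 200 CPM upwards 49.0% for 10 members and 43.4% for 47 others.

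Whether the set changed in the course of dormancy was asked for each sequence with a model that estimates the 4 stage means together. All tests were fitted over the 238 small RNAs that passed the filter. The members that did not pass were t05283376_x89, t04233781_x84 and t04441452_x81. At an adjusted p under 0.05 (edgeR's quasi-likelihood test, Benjamini-Hochberg), 0 of the 93 members differed among the 4 stages, where 1.26% of all sequences tested did. At an unadjusted p of 0.05 or less 3 members did (t00205877_x43290, t00969484_x10829 and t03271250_x5800), or 3.23% of the members against 10.9% of all sequences tested. DESeq2, which gave an adjusted p for 34 members, called 1, t00205877_x43290 (adjusted p 0.0477).

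The most abundant member, t00205877_x43290, was lower at Stage 4 than in any other stage. Its level was 2793, 3508 and 2464 CPM in A, B and C, and 3069, 5216 and 3915 CPM in D, E and F. It was 3158, 5186 and 2227 CPM in G, H and I, and 1375, 1604 and 1414 CPM in J, K and L. All 3 Stage 4 libraries lay below all 9 others. Stage means were 2922 ± 534, 4067 ± 1082, 3523 ± 1513 and 1464 ± 122 CPM (SD, n = 3). From Stage 2 to Stage 4 it fell by 1.47 on the log2 scale (SE 0.37), with an adjusted p of 0.0332 in edgeR's quasi-likelihood test (Benjamini-Hochberg). The log2 fold change of Stage 4 against Stage 3 was -1.27 (SE 0.37), with an adjusted p of 0.0894 in the same edgeR test. DESeq2 called this pair (-1.15, adjusted p 0.0418), and without H the value was -0.63 (adjusted p 0.355 in edgeR). Among the reads of the set, it took 28.1 to 36.6% in the libraries of Stages 1 to 3, and 12.3, 14.7 and 22.1% in J, K and L.

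The direction of that fall was the same in all 22 alternatives, with log2 values from -1.55 to -1.12, but the call was not stable. In edgeR's and DESeq2's tests the adjusted p was under 0.05 in 8 alternatives and higher in 14. It stayed under 0.05 without B, G, H or I. It was 0.245 without A, 0.341 without C, 0.130 without D, 0.241 without E, 0.145 without F, 0.314 without J, 0.148 without K and 0.185 without L (edgeR). Without both D and L it was 0.141 (edgeR). The call was also lost with no filter (0.322) and under the 4 other scalings, where edgeR's adjusted p ran from 0.0781 to 0.705. This member was on the list of changed small RNAs that the study drew from these same libraries, so its choice is not independent of its pattern.

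The other member of that list, t00969484_x10829, also had its lowest mean at Stage 4. The study kept t00205877_x43290 but later dropped t00969484_x10829, whose predicted fold it did not judge an optimal stem-loop. The study's list used a p of 0.05 or less. Here t00969484_x10829 had an unadjusted p of 0.05 or less among the stages, but no adjusted p under 0.05 in edgeR's quasi-likelihood test. Its levels were 567, 709 and 545 CPM at Stage 1, 564, 1324 and 1144 CPM at Stage 2, 830, 1633 and 631 CPM at Stage 3, and 406, 545 and 235 CPM at Stage 4. Stage 4 overlapped Stage 1 and lay below Stages 2 and 3. The log2 fold change of Stage 4 against Stage 3 was -1.38 (SE 0.45), with an adjusted p of 0.126 in edgeR's quasi-likelihood test. DESeq2 called this pair (-1.31, adjusted p 0.0459). The value ranged from -1.72 to -0.66 when each library was left out, the smallest change being without H (adjusted p 0.412 in edgeR).

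The 2 members of family 5 differed in level and were lowest on average at Stage 1. The levels of t01163329_x11463 were 599.5, 443 and 404 CPM at Stage 1, 545, 1165 and 1012 CPM at Stage 2, 937, 1185 and 788 CPM at Stage 3, and 1093, 883 and 383 CPM at Stage 4. Stage 1 overlapped Stages 2 and 4 and lay below Stage 3. Those of t10212079_x3461 were 204, 77.2 and 95.5 CPM, 138, 398 and 323 CPM, 358, 358 and 323 CPM, and 238, 206 and 59.0 CPM in the same order. Its 3 Stage 3 libraries again lay above all 3 of Stage 1. Neither passed the test of any change among the stages, with adjusted p of 0.647 and 0.483 in edgeR's quasi-likelihood test.

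A different course was measured for t03271250_x5800, the most abundant member with a U at its first base. It stood at 461, 707 and 716 CPM at Stage 1, 72.3, 269 and 458 CPM at Stage 2, 491, 315 and 459 CPM at Stage 3, and 330, 259 and 104 CPM at Stage 4. Stage 1 was above Stages 2 and 4 in all 3 libraries and overlapped Stage 3. The adjusted p among the stages was 0.455 in edgeR's quasi-likelihood test. The other U member, t01106153_x1640, had stage means of 125 ± 4.54, 103 ± 51.4, 129 ± 74.6 and 80.1 ± 74.6 CPM (SD, n = 3) and was at 0 in library L.

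**Figure D4:**
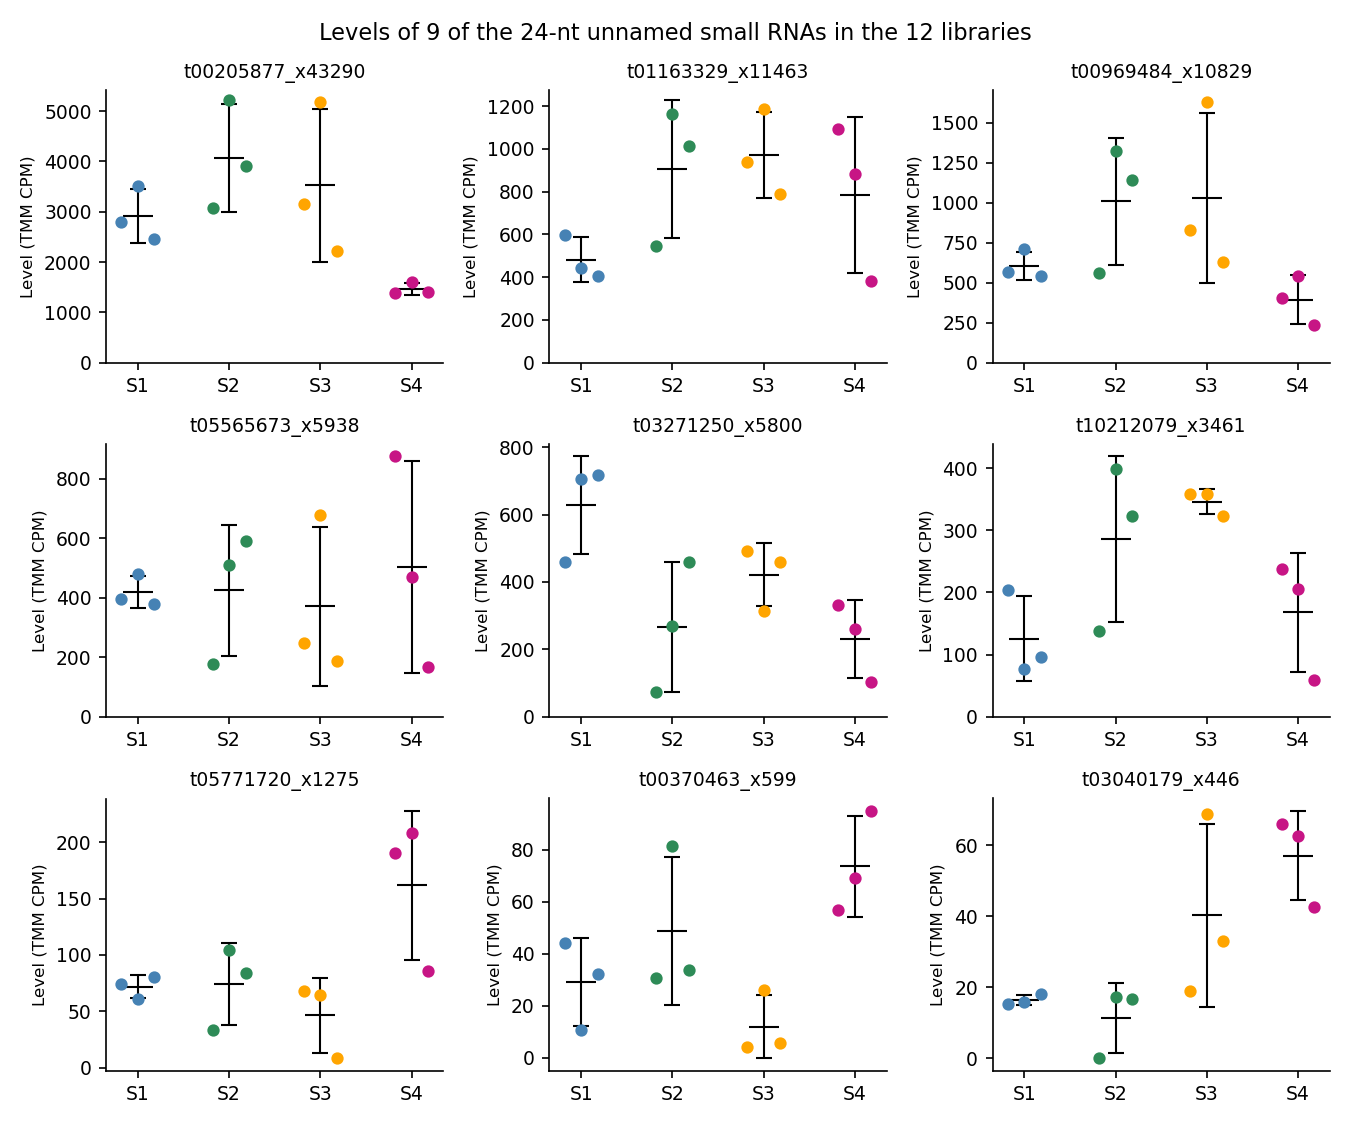
Levels in TMM CPM of 9 members in the 12 libraries by stage (points, 1 per library), with stage means and SD (n = 3). In t00205877_x43290 the Stage 4 points (1375 to 1604 CPM) lie below all others, while in most panels the points of different stages overlap.

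A pair of less abundant members, taken from the 10 with the smallest p among the stages, had their lowest mean at Stage 3 and their highest at Stage 4. This course was not particular to them, since the summed level of family 3, given below, followed it too. For t05771720_x1275 the levels were 74.4, 60.6 and 80.4 CPM at Stage 1, 33.4, 105 and 83.9 CPM at Stage 2, 67.6, 64.0 and 8.24 CPM at Stage 3, and 191, 209 and 86.1 CPM at Stage 4. All of Stage 4 was above all of Stages 1 and 3 but overlapped Stage 2. For t00370463_x599 they were 44.3, 10.8 and 32.1 CPM, 30.7, 81.5 and 33.6 CPM, 4.05, 25.8 and 5.70 CPM, and 56.7, 69.0 and 94.95 CPM, with Stage 3 below Stages 2 and 4. Against Stage 3, the Stage 4 log2 values were 1.80 (SE 0.73) and 2.66 (SE 0.99), and the adjusted p were 0.283 and 0.205 in edgeR's quasi-likelihood test. The first was called by DESeq2 (1.88, adjusted p 0.0467), and the second by edgeR without H (4.19, adjusted p 0.0486). Without library I the values were 1.25 (adjusted p 0.842) and 2.29 (adjusted p 0.706) in edgeR. Without G the second was 2.22 (adjusted p 0.615 in edgeR). The remaining members among the 10 with the smallest p values were t06292294_x2452, t00403975_x734 and t06991240_x100. The last of these had no reads in the 3 Stage 1 libraries and 0 to 23.2 CPM elsewhere, so no fold is given for it.

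Levels were also summed over the members of a family, as a description without a test. Summed over its 14 members, family 1 was at 1351 ± 152, 1565 ± 199, 1267 ± 810 and 1404 ± 340 CPM at Stages 1 to 4 (SD, n = 3). Within it, t07792803_x3305 had stage means of 230 ± 46.2, 194 ± 67.8, 238 ± 136 and 254 ± 11.2 CPM. Its member t05988915_x1147, which begins with G, had 85.5 ± 23.8, 121 ± 71.5, 72.6 ± 16.8 and 42.4 ± 21.8 CPM. Family 2 summed to 651 ± 90.9, 1100 ± 321, 885 ± 316 and 1119 ± 394 CPM, and family 3 to 754 ± 41.3, 802 ± 483, 653 ± 465 and 950 ± 602 CPM. In family 3 the lowest sums were in libraries D, G, I and L, at 245 to 439 CPM, and the other 8 were at 718 to 1563 CPM, so that the low libraries came from Stages 2, 3 and 4. In family 2 all libraries of Stages 2 and 4 lay above those of Stage 1 (547 to 710 CPM), the lowest of them at 739 CPM. In family 5 the sums of Stage 3 (1111 to 1544 CPM) lay above those of Stage 1 (499 to 804 CPM). Such separations of 3 libraries from 3, here and for the single members above, were picked out after the values were seen. They were not counted over all sequences, so they do not show a trait particular to these members or families.

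Between pairs of stages, calls among the members were few as well. Over the 6 pairs together, 1 of 558 tests of members had an adjusted p under 0.05 in edgeR's quasi-likelihood test (Benjamini-Hochberg), the fall of t00205877_x43290 described above, where 0.910% of all 1428 tests did. At an unadjusted p of 0.05 or less, 20 of the 558 tests were past the threshold, or 3.58%, against 9.03% of all tests. The pairs share their libraries, so these tests are not independent of each other.

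The median of the members was above 0 at each later stage when set against Stage 1. The median log2 fold change from Stage 1 was 0.48 at Stage 2, 0.25 at Stage 3 and 0.55 at Stage 4, against -0.03, 0.15 and 0.04 over all sequences tested. At Stage 4, 70 of the 93 members (75.3%) had a value above 0, where 50.4% of all sequences did. The 3 comparisons share the Stage 1 libraries. By mean level, 45 of the 96 peaked at Stage 4, 34 peaked at Stage 2 and 11 at Stage 3, while 6 had their highest mean at Stage 1. These counts include the 3 members that did not pass the filter. The same counts were not made over all sequences, so they do not show a trait particular to the members. Without D and L, the Stage 4 median was 1.00 for the members and 0.20 for all sequences. Without H, the Stage 3 median turned to -0.34 for the members and -0.06 for all sequences. With scaling by sequenced reads both were 0.41 at Stage 3. These medians are descriptions. The median level of the members varied within stages with an SD of 0.45 (log2), about the size of these shifts.

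The last comparison set the ecodormant Stages 3 and 4 together against the endodormant Stages 1 and 2, each as an average. At an adjusted p under 0.05 in edgeR's quasi-likelihood test (Benjamini-Hochberg), 0 of the 93 members differed (also 0 with DESeq2), where 1.26% of all sequences did. At an unadjusted p of 0.05 or less 2 members were past the threshold, t03040179_x446 higher and t00205877_x43290 lower, or 2.15% against 10.1% of all sequences. The median log2 fold change was 0.12 for the members and 0.07 for all sequences tested.

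The 6 ecodormancy libraries did not overlap the 6 endodormancy libraries for 1 member, or 1.08% of the 93, against 1.26% of all sequences tested. It was t03040179_x446, which was singled out after its values were seen. Its levels were 15.4, 15.8 and 18.1 CPM at Stage 1, 0, 17.2 and 16.8 CPM at Stage 2, 19.1, 68.9 and 32.9 CPM at Stage 3, and 66.0, 62.6 and 42.7 CPM at Stage 4. The lowest ecodormancy library, G, was only just above the highest endodormancy library, C. The log2 fold change was 1.81 (SE 0.81) and its adjusted p 0.433 in edgeR's quasi-likelihood test.

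**Figure D5:**
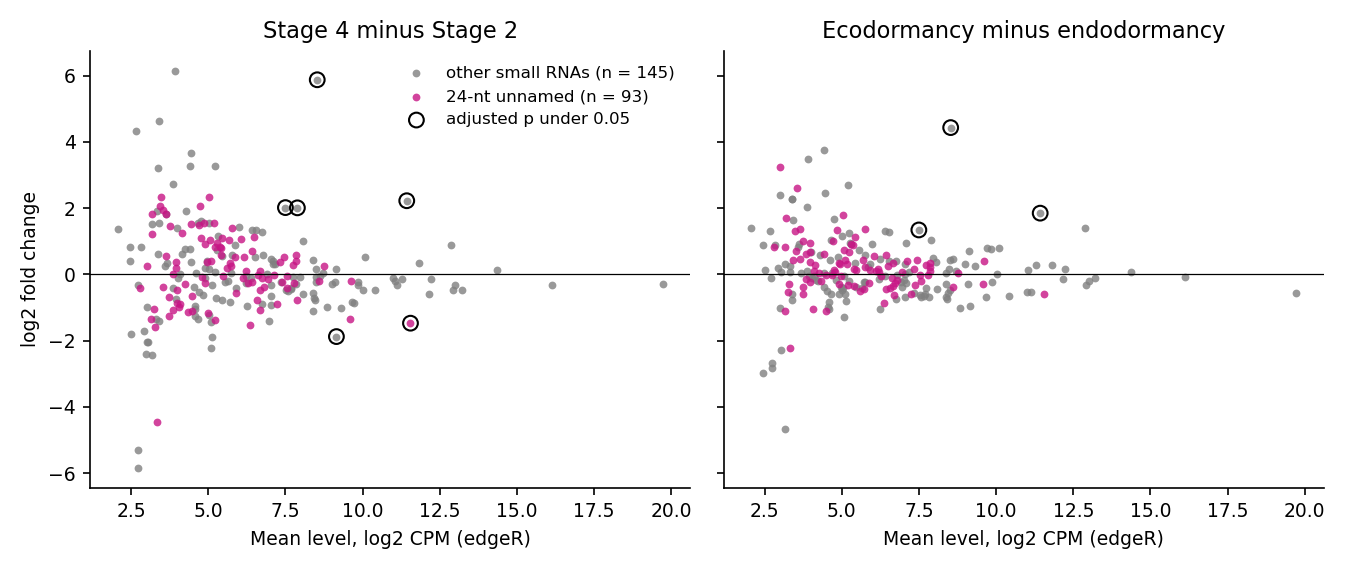
Fitted log2 fold change against mean level for the 93 members tested and the 145 other small RNAs, for Stage 4 minus Stage 2 and for ecodormancy minus endodormancy. Circles mark an adjusted p under 0.05. On the left 1 member, t00205877_x43290, is circled at -1.47, and on the right none is.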

How the data were processed

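Small RNAs bound to AGO proteins were sequenced from 12 libraries of apple buds, 3 for each of the 4 stages in GEO's labels. With Mir-Island and the GDDH13 v1.1 genome as reference, the authors made 2 tables of raw read counts, deposited without normalization, 1 for known mature miRNAs and 1 for hairpin loci found de novo. The mismatches allowed and the treatment of reads with several loci are not given in the sources used here. The submitters' processing notes name Bowtie 0.12.9. The columns carry library numbers. The library letters and stages were taken from the study's own tables, which give no replicate numbers, so libraries of a stage were treated as unordered. The tables hold 48 further per-library columns, which were not used. The labels number the replicates of each stage. The study's methods describe each biological replicate as a pool of buds, and p values measure the spread between these pools.

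Loci were collapsed to 370 distinct sequences. Some lines of the hairpin table came empty and were not analysed here, so the 96 sequences may not be the full set. Totals ran from 561723 to 2307267 mature reads per library. The members, families, lists and tests were chosen with earlier results of these data known. The test was the quasi-likelihood F test of edgeR 4.0.16 (R 4.3.3) after TMM scaling. Its filter, filterByExpr, required counts of 10 and totals of 15, and left 238 sequences, over which Benjamini-Hochberg adjustment was made. Standard errors were obtained from each log2 fold change and the root of its F. The test of any change and the comparison of Stage 4 with Stage 1 were run on simulated counts, with any changes set at Stage 4. The other comparisons, DESeq2 and libraries as unlike as D and L were not simulated. Hairpins were refolded with RNAfold 2.7.2. Members were named where they were among the 10 most abundant, the 10 with the smallest p among the stages or called in any test, on the study's list, among those with the most loci, in a family, or among the 5 with the fewest or the most reads. Some further members were named outside this rule, for a U at the first base, a match to an opposite strand, the most unpaired bases, or after their values were seen. Families come from at least 20 shared bases. Alternatives were other scalings, filters and tests, DESeq2 1.42.0, leaving out libraries, fits of 2 stages alone, each locus or read counted, and a fold without lonely pairs. The sequence of 1 member of family 1 is not reported here.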

Additional observations from a re-analysis of the deposited data

How the results depend on the processing

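No paired analysis was possible because the columns carry no replicate numbers. Members with an adjusted p under 0.05 among the stages were 0 (0 to 1 when each library was left out, the 1 being t01903391_x2585 without H, at an adjusted p of 0.0325 in edgeR) and 1 with DESeq2. Between the phases they were 0 in every alternative run. Over the 6 pairs of stages the calls were 1 (0 to 4 when each library was left out), 4 with DESeq2, and 0 with median-of-ratios scaling, scaling by all mature reads, by those without miR166 or by sequenced reads, no filter, fits of 2 stages alone, and without D and L. At an unadjusted p of 0.05 or less, 3 members differed among the stages (1 to 8 when each library was left out), 0 with all mature reads, 1 without miR166, 8 with no filter, 6 of 36 with at least 10 reads in every library, and 13 without D and L. Between the phases the 2 members became 7 with all mature reads, 1 with sequenced reads, 5 with no filter, 1 with at least 10 reads in every library, 4 in the likelihood ratio test, 6 with DESeq2 and 9 without D and L (1 to 7 when each library was left out). Over the pairs the 20 tests became 37 with DESeq2 and 51 without D and L (12 to 38 when each library was left out). The cause of these shifts was not tested. The members tested were 96 with no filter and 94 without D and L. Shares over all sequences are not given for these alternatives, so the counts do not show how the members compare with all sequences there. Scaling by all mature reads moved the median of all sequences between the phases from 0.07 to 0.66 and that of the members from 0.12 to 0.73 (log2). Without library H the median of the members was -0.16 and that of all sequences 0.00. The share of reads was 1.05 to 1.23% when each library was left out, 6.53% outside miR166 and 0.0599% of the sequenced reads. An A at the first base was found in 89.6% of sequences, 88.2% of loci and 76.3% of reads. Of the 56 members named by the rule with an adjusted p among the stages, 1 passed in 1 alternative, t00205877_x43290 with DESeq2 (0.0477). t01903391_x2585 is not among these 56 and was named after its values were seen. For the many members with few reads, depth limits what can be detected.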

Other observations

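The 2 named sequences of 24 nt, osa-miR1862d and rgl-miR5141, were each found in 1 library only, the first with 1 read in library H and the second with 3 reads in library K. They were too rare to be compared with the 96 unnamed sequences.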
